A study of Mus musculus with 4 samples.

Results

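Basal cells of the control mouse trachea were divided by a genetic record of Ki67 expression. The comparison set 1903 labelled against 609 unlabelled basal cells, which together are 2512 of the 3632 basal cells and of the 25112 barcodes in the control libraries. The whole series holds 39524 barcodes. A cell was taken as basal with at least 1 UMI of Trp63, at least 3 UMIs of Krt5 and at most 1 UMI of the ciliated cell genes Tmem212 and Ccdc153. It also needed at least 500 genes, at most 15% mitochondrial UMIs and at least 8000 UMIs in all, where a UMI is a counted RNA molecule. Labelled cells had at least 5 eGFP UMIs per 10000 UMIs and unlabelled cells had at most 0.5, so eGFP, Trp63, Krt5, Tmem212, Ccdc153 and depth chose the cells and are given as description.

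The series is single-cell RNA sequencing (10x Genomics 5′ kit) of dorsal and ventral trachea from control and Ctnnb1 knockout mice, with 1 library per region and genotype. All mice, controls included, carried P63-CreER, Ki67-lsl-Dre and Rosa26-rsr-GFP and received tamoxifen 10 days before the trachea was taken. Control mice were Ctnnb1-fl/+ and so had 1 floxed allele of beta-catenin, and knockouts were Ctnnb1-fl/fl. The labels do not state the age of the mice, how many entered each library or which part of Ctnnb1 is floxed. The control dorsal and ventral libraries shared 57 cell barcodes, and other pairs 21 to 30. Nothing says whether the dorsal and ventral pieces came from the same animals, so every p-value below measures only the spread between these libraries.

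Basal cells are the stem cells of the tracheal lining. They divide to renew themselves and give rise to luminal secretory and ciliated cells, and in places to hillocks, which are patches of stratified, squamous-like cells. In this reporter, tamoxifen lets Cre in p63-expressing cells unlock Dre at the Ki67 locus, and a cell that then switches on Ki67 makes Dre and turns on GFP for good. The label is inherited by daughter cells. A labelled cell is thus one that entered the cell cycle after tamoxifen or descends from one, and it need not be dividing when measured. An unlabelled cell may not have entered the cycle, or Cre may not have acted in it, and these cannot be told apart here. The same Cre acts on floxed Ctnnb1, so the arms may also differ in Ctnnb1 recombination, which was not tested.

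Genes of mitosis were among those with the largest differences between labelled and unlabelled cells, and the promoters of 4 of them are shown because such genes share short sequence elements that repress them in resting cells and activate them late in the cycle. The 150 bases before each start site are given from RefSeq on build GRCm38.p6, which is not the build of the deposited counts (GRCm39). Capitals mark CCAAT and the cell cycle homology element TTTGAA on either strand (as ATTGG and TTCAAA on the other).
Ube2c, chr2:164769779-164769928, plus strand: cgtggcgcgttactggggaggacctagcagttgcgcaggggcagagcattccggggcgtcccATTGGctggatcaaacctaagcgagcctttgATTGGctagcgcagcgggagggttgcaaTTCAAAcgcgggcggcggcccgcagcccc
Cdk1, chr10:69352913-69353062, minus strand: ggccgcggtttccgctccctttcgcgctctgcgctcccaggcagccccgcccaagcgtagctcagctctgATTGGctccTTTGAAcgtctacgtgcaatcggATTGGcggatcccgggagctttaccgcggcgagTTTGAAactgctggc
Cenpf, chr1:189688087-189688236, minus strand: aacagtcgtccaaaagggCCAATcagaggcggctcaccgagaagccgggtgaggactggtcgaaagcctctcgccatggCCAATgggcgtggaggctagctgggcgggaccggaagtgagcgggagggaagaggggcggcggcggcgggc
Cdca3, chr6:124830026-124830175, plus strand: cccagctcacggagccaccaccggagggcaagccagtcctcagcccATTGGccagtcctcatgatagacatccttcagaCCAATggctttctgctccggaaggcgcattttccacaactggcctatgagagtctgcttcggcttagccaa
Each of these 4 promoters held CCAAT at 2 places. Over the 250 bases before the start, CCAAT was found in 34.5% of 27025 promoters and in all 6 mitotic genes that passed the test below (Ube2c, Cdk1, Cenpf, Cdca3, Ckap2l and Cdca8, the last of which lies outside the naming rule and was added after its values were seen). TTTGAA was found in 16.3% of promoters and in 3 of the 6, Ube2c, Cdk1 and Ckap2l. Its variant TTCGAA was found in 1.34% and in none of the 6. A match of letters is a description of this window and not a measured site.

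Labelled cells were the largest class of basal cells in both control libraries. They made up 1311 of 2410 basal cells dorsally (54.4%, 95% exact interval 52.4 to 56.4) and 592 of 1222 ventrally (48.4%, 45.6 to 51.3). Unlabelled cells numbered 392 (16.3%) and 217 (17.8%), and 707 and 413 cells lay between both limits. The median labelled cell had 10.2 eGFP UMIs per 10000 dorsally and 10.4 ventrally, while 332 of the 392 and 146 of the 217 unlabelled cells had none. Intervals on shares and ratios cover counting error only.

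Cells outside the basal gate gave a background for eGFP, whose source was not tested. Cells gated as fibroblasts, in which a p63-driven Cre is not expected, held 1.24 and 1.02 eGFP UMIs per 10000 in the dorsal and ventral control libraries. The labelled limit was passed by 3.37% and 2.07% of them, and 41.6% and 48.6% lay at or under the unlabelled limit. The limit for unlabelled cells therefore lies below the average background, and the 2 limits leave out cells that cannot be placed. Just under and just over the labelled limit (4 to 5 and 5 to 6 per 10000), genes of G2 and mitosis summed to 1532 and 1316 CPM (UMIs scaled to the cells' total) dorsally, and to 949 and 633 CPM ventrally. Around the unlabelled limit (0.25 to 0.5 and 0.5 to 0.75 per 10000) they summed to 499.8 and 417 CPM dorsally and to 506 and 469 CPM ventrally.

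**Figure D1:**
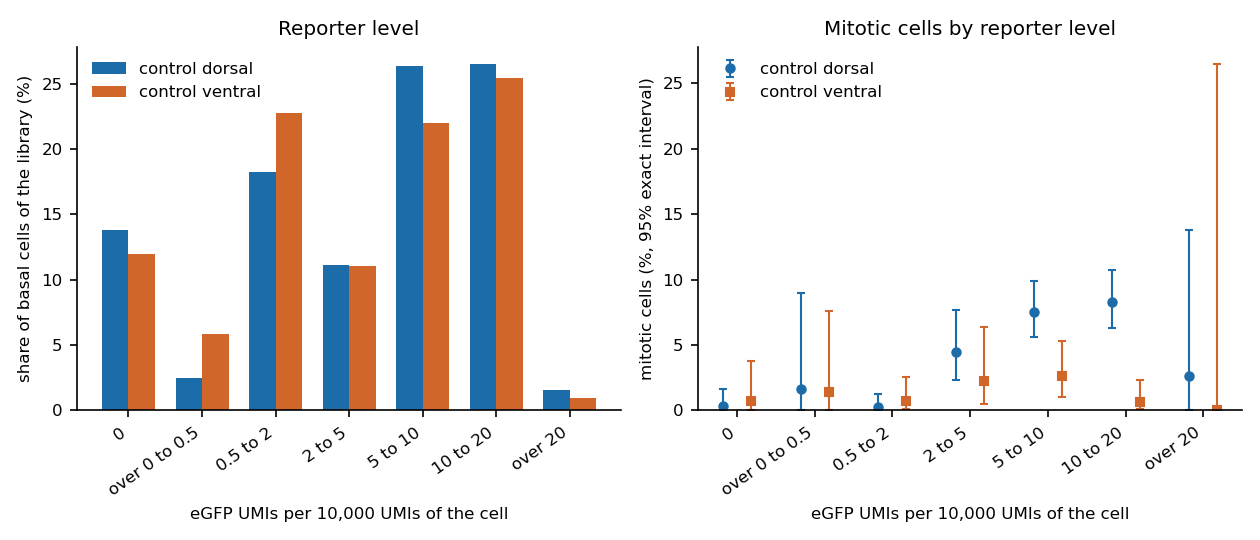
Left, share of the basal cells of each control library (percent) by eGFP UMIs per 10000 UMIs; right, share of mitotic cells in each of these bins (percent, with 95% exact intervals). Dorsally the mitotic share was 0.301% at 0 eGFP UMIs and 8.31% at 10 to 20 per 10000; ventrally the intervals of all bins overlap.

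The arms differed in depth, which the choice of cells did not even out. Labelled cells had medians of 18813 UMIs dorsally and 23677 ventrally, against 14598 and 22592 in unlabelled cells. Summed over cells, the labelled arms held 31126343 and 15892660 UMIs and the unlabelled arms 6800364 and 5092054. Doublet calls were fewer in labelled cells, at 1.91% against 3.06% dorsally and 3.38% against 5.99% ventrally. Among the genes of the rule, Trp63 stood at 122 against 159 CPM dorsally and 135 against 164 CPM ventrally, and Krt5 at 1530.2 against 1081 CPM and 919 against 907 CPM. Every cell of both arms thus carried the basal markers by choice. Krt15, a basal keratin that the choice did not use, was detected in 1310 of 1311 and 590 of 592 labelled cells and in 389 of 392 and 217 of 217 unlabelled cells.

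Cells in mitosis were concentrated among labelled cells in the dorsal library. Each cell was thinned to 8000 UMIs and called mitotic with UMIs of at least 2 of 8 late cell cycle genes. By this measure 102 of 1311 labelled cells were mitotic dorsally (7.78%, 6.39 to 9.37) and 2 of 392 unlabelled cells (0.510%, 0.0618 to 1.83). Ventrally the shares were 9 of 592 (1.52%, 0.697 to 2.87) and 2 of 217 (0.922%, 0.112 to 3.29), with overlapping intervals. Without thinning, the dorsal shares were 9.76% and 1.53% and the ventral shares 4.73% and 2.30%. Fibroblast-gated cells, as a background, had 0.143% and 0.246%. Of the 117 mitotic basal cells found dorsally 87.2% were labelled, and of the 16 found ventrally 9 were. A difference in mitotic share between the arms was not detectable at this depth and cell number ventrally.

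Across all genes, UMIs were summed per library and arm and compared with edgeR, pairing the arms within each library. Of 12193 genes tested, 28 rose in labelled cells of the controls (0.230% of those tested) and 22 fell (0.180%), 50 in all (0.410%), at a Benjamini-Hochberg adjusted p of at most 0.05. All 50 lay on the same side in both control libraries. In such sums, fewer cells with an RNA and less of it per cell cannot be told apart. At an unadjusted p under 0.05 there were 1552 genes (12.7%), and many of the 50 had an adjusted p just under the threshold. The median difference over all genes was -0.01 on the log2 scale dorsally and -0.02 ventrally. The counts depended on single libraries: they were 14 and 13 without the control dorsal library, 93 and 49 without control ventral, 106 and 69 without knockout dorsal and 143 and 67 without knockout ventral. The knockout libraries enter because they help to estimate the spread between libraries, which rested on 2 residual degrees of freedom.

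**Figure D2:**
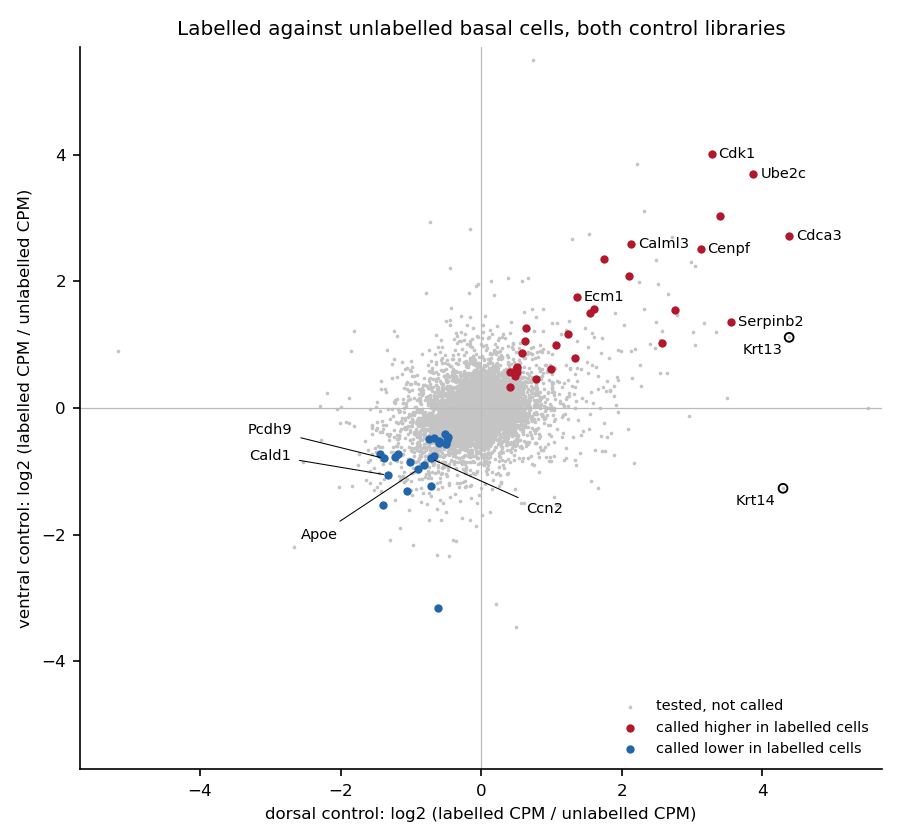
Log2 ratio of labelled to unlabelled CPM for the genes tested, dorsal control on the x axis and ventral control on the y axis; red and blue points are the 28 genes called higher and 22 called lower, and open circles mark Krt14 and Krt13. All 50 called genes lie on the same side of 0 on both axes, while Krt14 lies above 0 dorsally and below 0 ventrally.

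Among the named genes, 5 of mitosis rose in labelled cells. Ube2c, the ubiquitin-conjugating enzyme that works with the anaphase-promoting complex, stood at 102 CPM in labelled against 6.91 CPM in unlabelled cells dorsally and at 13.9 against 0.982 CPM ventrally (log2 3.88 ± 0.51 (SE), n = 2 control libraries, adjusted p = 0.0457). Cenpf, a kinetochore protein, stood at 49.2 against 5.59 CPM and 8.37 against 1.37 CPM (3.05 ± 0.21, adjusted p = 0.00369). Cdca3, which helps to trigger entry into mitosis, stood at 25.9 against 1.18 CPM and 3.21 against 0.393 CPM (4.23 ± 0.39, adjusted p = 0.0112), where the ventral ratio of 8.17 has a counting interval of 2.15 to 69.3. In both libraries the labelled arm was higher, which the naming rule required, and the levels themselves were several times higher dorsally.

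Cdk1, the kinase that drives mitosis, stood at 33.4 against 3.38 CPM dorsally and at 4.72 against 0.196 CPM ventrally (3.41 ± 0.46, adjusted p = 0.0476). The ventral unlabelled level was a single UMI, and the ventral ratio of 24.0 has an interval of 4.18 to 962. Ckap2l, a spindle protein, stood at 26.2 against 6.03 CPM and 4.53 against 0.982 CPM (2.14 ± 0.29, adjusted p = 0.0476). Cenpf passed in each of the 14 alternative settings in which it was tested, Cdca3 in 12, Cdk1 in 11 and Ube2c in 9 of 14, and Ckap2l in 11 of 17. The ventral values rest on few cells: 5 cells held 95.5% of the labelled Ube2c UMIs and 95.5% of those of Cenpf. Dorsally 116 labelled cells held Ube2c UMIs, and 5 unlabelled cells did.

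Of the 32 genes listed for G2 and mitosis, 22 had the UMIs to be tested, 4 rose and none fell (the background was 0.230% and 0.180%), and 19 had an unadjusted p under 0.05. Their median difference was 2.43 on the log2 scale against 0.00 for all genes tested. Summed over the whole list, labelled cells held 1306 against 472 CPM dorsally (2.77-fold, 2.67 to 2.87) and 610.2 against 543 CPM ventrally (1.12-fold, 1.08 to 1.17). All 32 members were higher in labelled cells dorsally and 30 of 32 ventrally, against 49.6% and 46.6% of all genes tested. The list counts include members with too few UMIs to be tested, which the background leaves out. Ventrally 5 members had 0 UMIs in the unlabelled arm, which held fewer UMIs in all. Mki67 itself, whose locus drives the label, stood at 32.4 against 3.53 CPM and 6.17 against 2.36 CPM and did not pass (2.73 ± 0.58, adjusted p = 0.111). Anln, which builds the cleavage furrow, stood at 47.6 against 7.21 CPM and 5.73 against 0.786 CPM (2.75 ± 0.55, adjusted p = 0.0999). Among cells with UMIs of fewer than 2 of the 8 late cell cycle genes before thinning, the list's median was 0.13 over the members still tested. All 8 genes are on this list, so a smaller difference there is in part fixed by the choice of cells.

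For the earlier phases of the cycle no listed gene passed. Of 26 S phase genes tested, 3 had an unadjusted p under 0.05, all with labelled cells higher (background 6.04%), and their median was 0.47 dorsally and -0.13 ventrally. The list was higher in labelled cells for 22 of 27 members dorsally and 10 of 27 ventrally. It summed to 430.6 against 366 CPM (1.18-fold, 1.13 to 1.23) and 426 against 416 CPM (1.03-fold, 0.977 to 1.08). None of 10 G1 cyclin and Myc genes passed (median -0.01), nor any of 20 ribosome biogenesis genes (0.06). Myc stood at 367 against 435 CPM dorsally and at 384 against 436 CPM ventrally (-0.20 ± 0.08, adjusted p = 0.367). None of 15 genes of CDK inhibitors and quiescence passed (median -0.12), though 5 were lower and 2 higher at an unadjusted p under 0.05 (background 6.68% and 6.04%). Cdkn1c, which encodes the CDK inhibitor p57, stood at 26.7 against 38.2 CPM and 57.7 against 76.6 CPM (-0.45 ± 0.09, adjusted p = 0.0999).

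**Figure D3:**
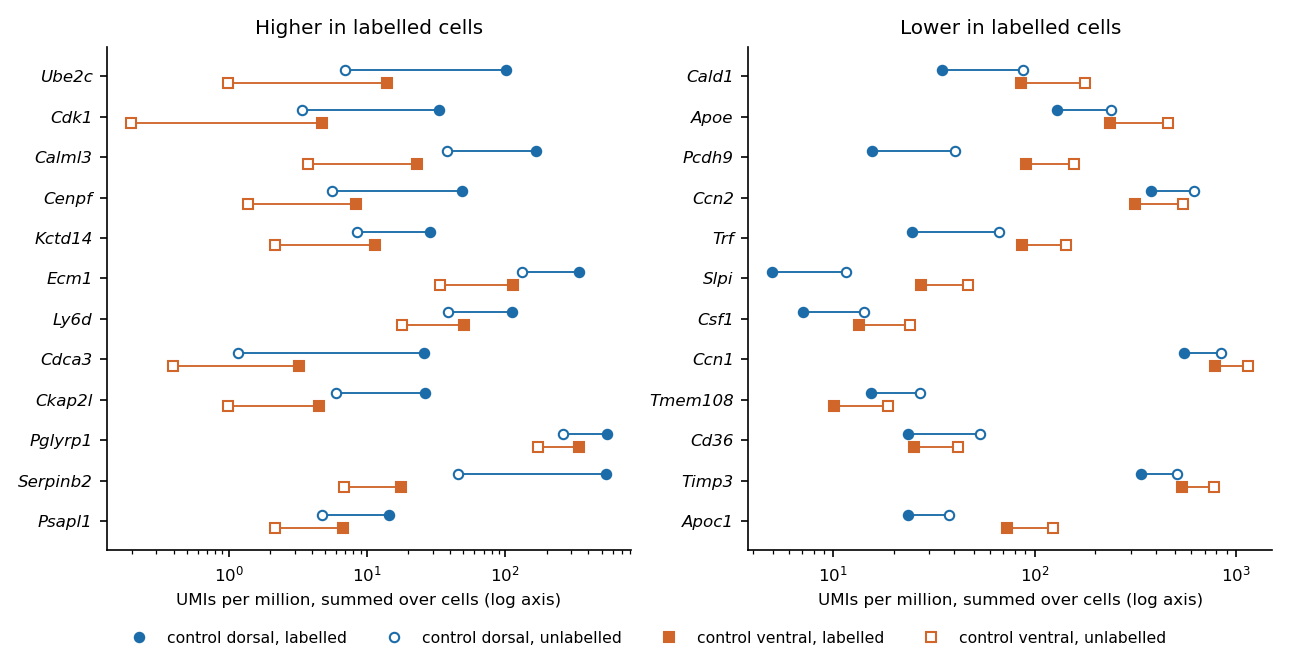
CPM of the summed UMIs (log axis) of the 12 genes named in each direction, with filled symbols for labelled and open symbols for unlabelled cells, circles for control dorsal and squares for control ventral. In each row both filled symbols lie on the same side of their open symbols, which the naming rule required. The mitotic genes and Serpinb2 lie at higher levels dorsally.

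Some genes of hillock and squamous cells also rose in labelled cells. Calml3, a calmodulin-like protein of stratified epithelia, stood at 168 against 38.2 CPM dorsally and at 23.0 against 3.73 CPM ventrally (2.24 ± 0.16, adjusted p = 0.00369). Ecm1, a secreted protein of squamous epithelia, stood at 342 against 133 CPM and 115 against 34.0 CPM (1.53 ± 0.21, adjusted p = 0.0476). Serpinb2, a protease inhibitor made by hillock cells, stood at 538 against 45.9 CPM and 17.8 against 6.87 CPM (3.15 ± 0.35, adjusted p = 0.0236). All 3 were higher in labelled cells in both libraries, as the naming rule required, with the larger Serpinb2 ratio dorsally (11.7 against 2.59). The ventral labelled values rest on few cells. For each gene the top 5 cells held 54.1% (Calml3), 71.9% (Ecm1) and 77.4% (Serpinb2) of these UMIs. Ly6d, a surface protein of squamous and transitional epithelia, stood at 112 against 38.4 CPM and 50.7 against 17.9 CPM (1.54 ± 0.23, adjusted p = 0.0496). Of its ventral labelled UMIs, 5 cells held 59.9%. In the controls Ecm1 was higher in fibroblast-gated than in basal cells (679 against 200 CPM). Calml3 was higher in secretory-gated than in basal cells (151 against 87.1 CPM). Serpinb2 and Ly6d were highest in basal cells among the gated classes (226 and 73.0 CPM). Calml3 and Ly6d are not on the list below.

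Of 18 hillock and squamous genes, 11 were tested, and 3 of these rose, Ecm1, Serpinb2 and Lgals3. The background was 0.230%. None fell, and 8 were higher at an unadjusted p under 0.05 (background 6.04%). The median was 1.34, and the list summed to 8221 against 4767 CPM dorsally (1.72-fold) and to 2891 against 2093 CPM ventrally (1.38-fold). Krt13, the keratin that marks hillocks, stood at 519 against 24.9 CPM dorsally and at 16.4 against 7.46 CPM ventrally (3.73 ± 0.63, adjusted p = 0.0694). Of its ventral labelled UMIs, 5 cells held 70.4%. Krt6a and Krt4, keratins of stratified epithelia, did not pass either. Krt6a stood at 257 against 48.5 CPM and 32.7 against 16.1 CPM (1.95 ± 0.32, adjusted p = 0.0662), and Krt4 at 779 against 221 CPM and 208 against 119.8 CPM (1.34 ± 0.27, adjusted p = 0.103).

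The list was also read in cells with little hillock or secretory RNA. This choice of cells uses Krt4 and Krt13, which are on the list, so a smaller difference there is in part fixed by the choice. Without cells with more than 1 UMI of Krt4 and Krt13 or more than 10 Scgb1a1 and Scgb3a1 UMIs per 10000, 289 and 196 labelled cells and 138 and 110 unlabelled cells remained. In these, Ecm1 differed by 0.72 (adjusted p = 0.202) and Ly6d by 0.69 (adjusted p = 0.668), and the list's median was 0.25. Calml3 was too low to be tested there but passed in all 18 alternative settings in which it was tested. Over all alternatives the adjusted p ran from 0.000506 to 0.210 for Ecm1 and from 1.73e-06 to 0.668 for Ly6d.

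Genes of varied function also rose. Pglyrp1, a bacteria-binding protein, stood at 547 against 262 CPM dorsally and at 346 against 173 CPM ventrally (1.04 ± 0.13, adjusted p = 0.0383). Scgb3a2, a secretoglobin, stood at 5064 against 3246 CPM and 2376 against 994 CPM (0.96 ± 0.14, adjusted p = 0.0488). Mal, a membrane protein of apical transport, stood at 331 against 131 CPM and 36 against 20.8 CPM (1.16 ± 0.13, adjusted p = 0.0236). In each case labelled cells were higher in both libraries, which the naming rule required of Pglyrp1. Gabrp, a subunit of the GABA-A receptor, rose (0.83 ± 0.11, adjusted p = 0.0383), as did the galectin Lgals3 (0.55 ± 0.07, adjusted p = 0.0383) and the homeobox gene Barx2 (0.69 ± 0.10, adjusted p = 0.0488). Kctd14 (1.93 ± 0.29, adjusted p = 0.0496) and Psapl1 (1.63 ± 0.21, adjusted p = 0.0448) complete the 12 named genes.

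Of 18 genes of luminal commitment none passed, though 10 had an unadjusted p under 0.05, all with labelled cells higher (background 6.04%). Their median was 0.21, and they summed to 17905 against 14672 CPM dorsally (1.22-fold) and 10880.3 against 9108 CPM ventrally (1.19-fold). Krt8, a keratin of luminal cells, stood at 1780.1 against 1326 CPM and 908 against 661 CPM (0.46 ± 0.08, adjusted p = 0.0666). Cldn3, a tight junction claudin, stood at 547 against 359 CPM and 255 against 163 CPM (0.64 ± 0.11, adjusted p = 0.0694). Krt19, a keratin of simple epithelia, stood at 2797 against 2297 CPM and 1839 against 1452 CPM (0.33 ± 0.06, adjusted p = 0.0758). These ratios were of like size in both regions.

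Of 22 basal identity genes listed and tested, 1 rose and 1 fell, with a median of -0.02 (background 0.230% and 0.180%). At an unadjusted p under 0.05, 1 was higher and 5 were lower in labelled cells (background 6.04% and 6.68%). The list summed to 13231 against 10998 CPM dorsally (1.20-fold) and 10638 against 10491 CPM ventrally (1.01-fold). The gene that rose was the keratin Krt15, at 3172 against 2400.2 CPM dorsally and 3009 against 2391 CPM ventrally (0.38 ± 0.06, adjusted p = 0.0496). The gene that fell was Dlk2, a membrane protein related to Notch ligands, at 66.2 against 105 CPM and 101 against 139 CPM (-0.56 ± 0.08, adjusted p = 0.0488). Krt15 passed in 11 of 21 alternatives and Dlk2 in 14 of 21.

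The rule named 12 genes that fell in labelled cells. Apoe, an apolipoprotein, stood at 129.7 CPM in labelled against 241 CPM in unlabelled cells dorsally and at 236 against 462 CPM ventrally (-0.92 ± 0.07, adjusted p = 0.00369). Apoc1, another apolipoprotein, stood at 23.6 against 37.5 CPM and 73.4 against 124 CPM (-0.70 ± 0.08, adjusted p = 0.0236). Cald1, which binds actin and myosin, stood at 34.8 against 87.3 CPM and 85.8 against 179 CPM (-1.18 ± 0.13, adjusted p = 0.0236). Unlabelled cells were higher in both libraries for each, as the naming rule required. These RNAs were spread over many cells, with Apoe UMIs in 821 of 1311 and 277 of 392 dorsal cells.

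Ccn2 and Ccn1, secreted matricellular proteins and the best known targets of the YAP coactivator, fell as well. Ccn2 stood at 378 against 622 CPM dorsally and 314 against 545 CPM ventrally (-0.74 ± 0.06, adjusted p = 0.00937), and it passed in all 21 alternatives. Ccn1 stood at 555 against 839 CPM and 784 against 1152 CPM (-0.56 ± 0.08, adjusted p = 0.0488), and it passed in 13 of 21. They were the 2 of 14 tested YAP target genes that fell (background 0.180%), and none rose; 4 were lower at an unadjusted p under 0.05 (6.68%). The median of these 14 was -0.14, and the list summed to 2975 against 3947 CPM (0.754) and 3757 against 4672 CPM (0.804).

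Pcdh9, a protocadherin, stood at 15.6 against 40.4 CPM dorsally and 90.6 against 157 CPM ventrally (-1.03 ± 0.14, adjusted p = 0.0476). Trf, which encodes the iron carrier transferrin, stood at 24.5 against 66.5 CPM and 87.0 against 144 CPM (-1.05 ± 0.15, adjusted p = 0.0488). Timp3, an inhibitor of metalloproteases, stood at 337 against 509.5 CPM and 541 against 776 CPM (-0.54 ± 0.07, adjusted p = 0.0383). For all 3 the unlabelled arm was higher in each control library, as the naming rule required. Slpi, a protease inhibitor (-0.92 ± 0.13, adjusted p = 0.0488), Cd36, a fatty acid receptor (-0.96 ± 0.15, adjusted p = 0.0496), Csf1, the growth factor of macrophages (-0.91 ± 0.14, adjusted p = 0.0496), and Tmem108 (-0.83 ± 0.13, adjusted p = 0.0496) complete the 12. Without the cells with hillock or secretory RNA, Apoe (-0.60), Cald1 (-0.84), Ccn2 (-0.65), Timp3 (-0.55), Cd36 (-0.94), Csf1 (-1.08) and Pcdh9 (-0.69) still passed, while Trf, Slpi, Ccn1, Tmem108 and Apoc1 did not.

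Markers of other cell types also differed between the arms. The 8 fibroblast markers were lower in labelled cells in both libraries, 8 of 8 each, and summed to 382 against 721 CPM dorsally and 477 against 815 CPM ventrally, with none called and none at 0, and 7 were lower at an unadjusted p under 0.05 (background 6.68%). The 8 immune markers summed to 406 against 1098 CPM and 513 against 529 CPM, also with none at 0. Genes of class II antigen presentation summed to 9.09 against 273 CPM dorsally and 131 against 55.0 CPM ventrally, and haemoglobin genes to 125 against 1.62 CPM and 7.99 against 7.86 CPM. Myoepithelial and smooth muscle markers summed to 40.9 against 14.0 CPM (2.93-fold) and 53.9 against 29.5 CPM (1.83-fold), with 5 of 7 higher in labelled cells dorsally and 2 of 7 ventrally. Gland markers summed to 599 against 999 CPM (0.600) and 1359 against 1946 CPM (0.699). Without myoepithelial-like cells 18 genes were called, all among the 50. Few cells were removed by this choice. In the controls 1305 of 1311 and 588 of 592 labelled cells remained, and 391 of 392 and 215 of 217 unlabelled cells. In basal cells as a whole Apoe stood at 10.6% of its level in immune-gated cells, and Timp3 and Csf1 at 14.0% and 11.5% of their level in fibroblast-gated cells. Cd36 stood at 11.7% of its level in secretory-gated cells and Trf at 16.2% of its level in immune-gated cells. A further 4 genes that fell, Igfbp4, Lgals1, Tff2 and Gpc3, were under 10% of another class and were set aside as possible free RNA. Without cells with 2 or more collagen UMIs, 38 of the 50 calls remained among 40, and all 49 that could be tested kept their side. The part of free RNA in the other genes was not tested.

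None of 12 Notch genes passed (median -0.11), and 4 were lower at an unadjusted p under 0.05 (background 6.68%). Hes1, a Notch target, stood at 212 against 184 CPM dorsally and 211 against 226 CPM ventrally (0.07 ± 0.08, adjusted p = 0.785), and the ligand Jag2 at 68.6 against 87.9 CPM and 95.1 against 122 CPM (-0.34 ± 0.07, adjusted p = 0.100). Another Notch target, Hey1, stood at 7.07 against 11 CPM and 21.3 against 27.1 CPM (-0.46 ± 0.14, adjusted p = 0.255). None of 10 Wnt target genes passed (-0.10), and Ctnnb1, the gene floxed in these mice, stood at 276 against 277 CPM and 282 against 264 CPM (0.06 ± 0.07, adjusted p = 0.784). Of 16 genes of the EGF family and ERK feedback, 5 were lower and 2 higher at an unadjusted p under 0.05. After adjustment 1 fell (background 0.180%), the feedback inhibitor Spry1, at 64.0 against 90.6 CPM and 65.7 against 97.8 CPM (-0.52 ± 0.07, adjusted p = 0.0476).

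None of the 20 BMP and TGF-beta genes, 20 junction genes, 17 p53 response genes, 21 interferon response genes or 19 handling genes tested passed, with medians of -0.10, 0.04, -0.01, -0.13 and -0.12. The handling genes, which respond to dissociation, summed to 0.899 of the unlabelled level dorsally and 0.912 ventrally. Of these 19 genes, 6 were lower and 2 higher at an unadjusted p under 0.05 (background 6.68% and 6.04%). Egr2, an immediate early gene outside that list, fell (-0.60 ± 0.09, adjusted p = 0.0488).

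**Figure D4:**
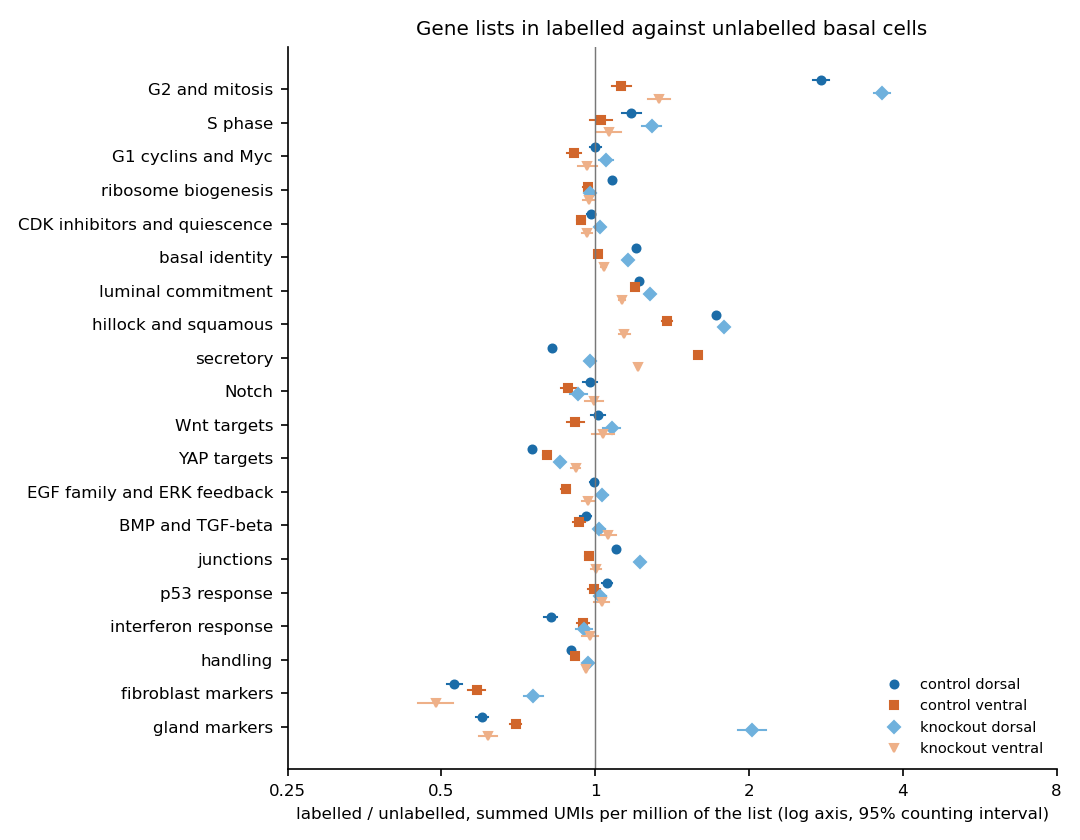
Ratio of labelled to unlabelled summed CPM for 20 gene lists (log axis) in all 4 libraries, with 95% counting intervals as lines. G2 and mitosis stands at 2.77 in control dorsal and 1.12 in control ventral, and fibroblast markers stand below 1 in all 4 libraries.

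The summed secretory list went different ways by region. Of 20 genes tested, 1 rose (Scgb3a2) and none fell, with a median of -0.01 (background 0.230% and 0.180%). The list summed to 52971 against 64315 CPM dorsally (0.824) and to 64788 against 40799 CPM ventrally (1.59). The labelled-cell difference varied with region for 8 members. The ratio was higher dorsally for 1 of them and ventrally for the others (background 0.738% and 0.320%). Scgb1a1, the main secretoglobin of club cells, stood at 4133 against 6894 CPM dorsally and 557 against 1891 CPM ventrally (-1.23 ± 0.24, adjusted p = 0.0959). Muc5b, a secreted mucin, stood at 12.5 against 28.8 CPM and 10.4 against 17.5 CPM (-1.0 ± 0.18, adjusted p = 0.0780). With these limits Scgb1a1 and Muc5b were lower in labelled cells in both libraries, while Scgb3a2 was higher in both. Unlabelled cells with 0 eGFP UMIs held less Scgb1a1 than labelled cells, at 3499 CPM dorsally and 384 CPM ventrally. The 60 and 71 unlabelled cells with some eGFP held 16122 and 4296 CPM. Over the alternatives the control difference changed sign for both, from -3.11 to 0.41 for Scgb1a1 and from -1.96 to 0.54 for Muc5b.

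Of 12 dorsal genes taken from earlier results of these data, 10 were tested and 2 rose, Tppp3 and Serpinb10. This list was chosen on these libraries and is no independent evidence of a direction. Tppp3, a microtubule-bundling protein also found in ciliated cells, stood at 475 against 277 CPM dorsally and 32.5 against 23.6 CPM ventrally (0.68 ± 0.09, adjusted p = 0.0476). Serpinb10, a clade B serpin, stood at 109 against 46.2 CPM and 8.56 against 3.73 CPM (1.24 ± 0.11, adjusted p = 0.0112). None of 11 ventral genes from the same source passed (median -0.27). The summed defining markers of ciliated cells stood at 39.8 against 39.1 CPM dorsally and 19.1 against 23.0 CPM ventrally.

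The labelled-cell difference itself varied with region for 129 of 12193 genes in a test that used all 4 libraries, with the log2 ratio of labelled to unlabelled cells higher dorsally for 90 (0.738%) and higher ventrally for 39 (0.320%). This counts the sign of dorsal minus ventral and not the size of the difference in either region. The counts were 271 and 91 without control dorsal, 164 and 76 without control ventral, 117 and 101 without knockout dorsal and 161 and 58 without knockout ventral. Among the 22 mitotic genes tested, 7 varied, all with the higher ratio dorsally, and among the 11 hillock and squamous genes 5 did, also all with the higher ratio dorsally.

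Krt14, a keratin of basal and myoepithelial cells, went in opposite directions. It stood at 281 CPM in labelled against 14.3 CPM in unlabelled cells in the control dorsal library and at 96.8 against 0.953 CPM in the knockout dorsal library. Ventrally it stood at 44.8 against 108 CPM in the control and at 15.7 against 90.6 CPM in the knockout. Labelled cells were thus high dorsally and low ventrally in both genotypes, and the difference between the regions was 6.36 ± 0.33 on the log2 scale (adjusted p = 4.33e-09). The mean over the control regions was 1.23 ± 1.60 (adjusted p = 0.801), so no common difference was found. Few cells held this RNA: 197 labelled and 15 unlabelled control dorsal cells and 40 and 35 control ventral cells had a UMI. In the controls 5 cells held 71.5% of the ventral labelled UMIs and 87.6% of the dorsal unlabelled ones. In the knockouts 39 labelled and 2 unlabelled dorsal cells and 6 and 26 ventral cells had a UMI. There 5 cells held 98.5% of the ventral labelled UMIs.

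Kif20b, a kinesin of cytokinesis, differed 12-fold dorsally and 1.14-fold ventrally in the controls (region difference 3.17 ± 0.45, adjusted p = 0.00185). Birc5, the survivin subunit of the chromosomal passenger complex, differed 10.3-fold and 2.42-fold (3.16 ± 0.72, adjusted p = 0.0412). Krt13 differed 20.9-fold and 2.19-fold (2.75 ± 0.57, adjusted p = 0.0219). Pak3, a kinase at low counts, differed 3.93-fold and 0.605-fold (2.68 ± 0.56, adjusted p = 0.0219). All 4 were higher in labelled cells dorsally, and Pak3 was lower in them ventrally.

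Dorsal minus ventral was negative for the other 5 named genes. Ccl20, a chemokine that draws lymphocytes and dendritic cells, stood at 1.67 against 6.91 CPM dorsally and at 24.4 against 24.5 CPM ventrally in the controls (-1.57 ± 0.24, adjusted p = 0.00245). Sftpb, a surfactant protein, stood at 4.4 against 5.88 CPM and 3.21 against 0.982 CPM (-1.88 ± 0.34, adjusted p = 0.0118). Akr1c18, a steroid dehydrogenase, stood at 48.9 against 37.5 CPM and 30.6 against 7.27 CPM (-1.33 ± 0.23, adjusted p = 0.00648). The other 2 named genes were Krtap17-1 (-1.38 ± 0.30, adjusted p = 0.0309) and Pxmp2, a peroxisomal membrane protein (-1.08 ± 0.17, adjusted p = 0.00290).

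**Figure D5:**
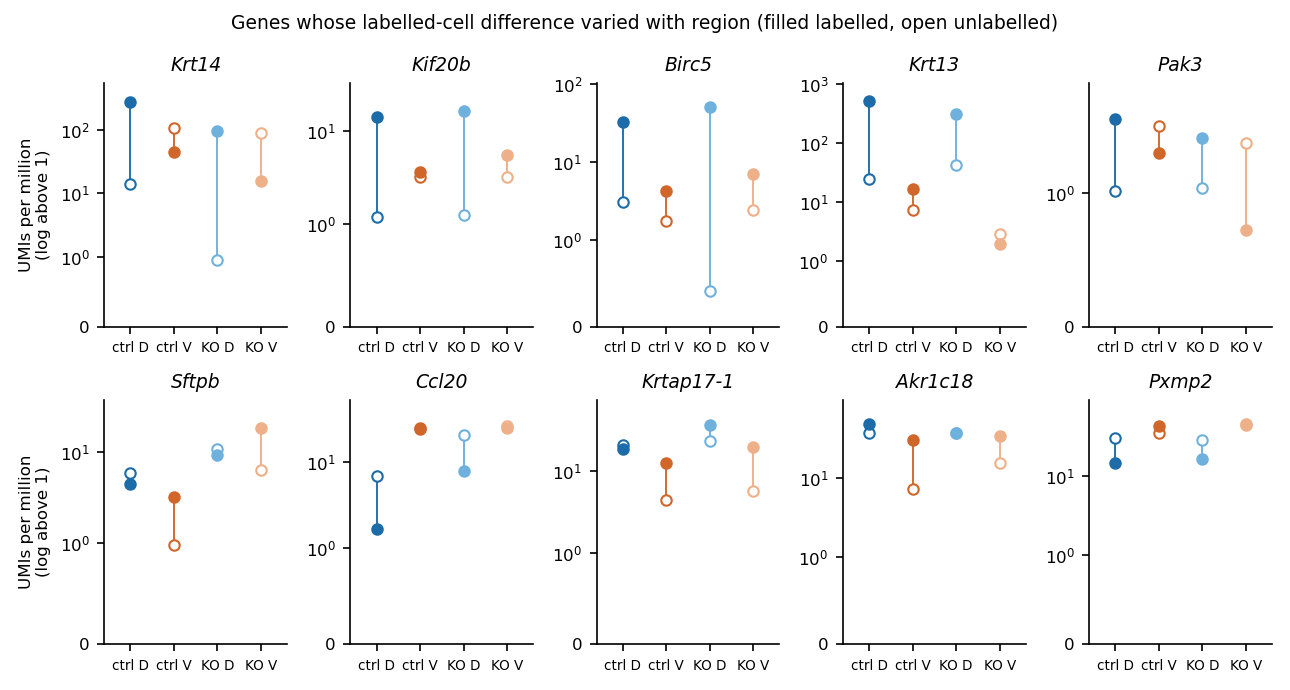
CPM of the summed UMIs (log above 1) of the 10 genes named for a regional difference, in labelled (filled) and unlabelled (open) basal cells of the control (ctrl) and knockout (KO) libraries, dorsal (D) and ventral (V). For Krt14 the filled point lies above the open one in both dorsal libraries and below it in both ventral libraries.

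The knockout libraries held fewer labelled basal cells, 29.0% (26.6 to 31.6) dorsally and 19.9% (17.2 to 23.0) ventrally, with 1 library per group and no test between genotypes. Within them, 22 genes rose in labelled cells (0.180%) and 3 fell (0.0246%). Of these 25, 15 were among the 50 of the controls, all on the same side, where 0.410% of all genes tested were called in the controls. Both sets came from 1 fit with a shared estimate of spread, so this overlap is not independent support. Of the 50, 48 lay on the same side in the knockouts, against 63.8% of all genes tested. The counts were 125 and 38 without control dorsal, 144 and 34 without control ventral, 1 and 2 without knockout dorsal and 157 and 11 without knockout ventral. Calml3 (2.24 ± 0.17, adjusted p = 0.00430), Apoe (-0.90 ± 0.07, adjusted p = 0.00430) and Cenpf (7.83 ± 0.38, adjusted p = 0.000514) passed in the knockouts too, the last against a single Cenpf UMI in each unlabelled arm, with ratios of 457 (81.9 to 18094) dorsally and 34.8 (5.62 to 1435) ventrally. In the test of the difference between genotypes edgeR called 0 genes, DESeq2 called 0, and 368 genes (3.02%) had an unadjusted p under 0.05. In the knockout dorsal library 6.10% of labelled and 0.627% of unlabelled cells were mitotic, and ventrally 1.32% (2 of 152) of labelled cells and 0 of 268 unlabelled cells (95% exact upper limit 1.37%).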

How the data were processed

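UMI counts per gene and barcode (33697 features, eGFP included) were used as the authors deposited them for 4 libraries. Per the submitters' processing notes, Cell Ranger 10.0.0 and GRCm39 were used, and no source here gives the annotation release, intron setting or cell filters. The members and gene lists were chosen with earlier results of these data known, and 2 lists were taken from such results.

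UMIs were summed per library and arm (8 sums) and tested with edgeR 4.0.16 in R 4.3.3. The quasi-likelihood fit used TMM factors, the library as a block and the labelled arm within each genotype, with Benjamini-Hochberg adjustment. Genes needed 20 UMIs over both arms in every library. The standard error is the log2 difference over the square root of F. The control value is the mean over a dorsal and a ventral library, so the spread includes any difference between regions. Ratios within a library carry 95% conditional binomial intervals.

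Named genes were the 12 in each direction that passed, lay on 1 side in both control libraries with at least 50 UMIs in each, and had interval bounds furthest from 1. Genes under 10% of their level in another gated class were set aside. For the regional difference the 5 largest each way that passed were named, and Ctnnb1, Mki67, Krt14, Krt8, Hes1 and Hey1 were always given. Other genes were picked from the lists and calls after their values were seen.

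The test was tried on simulated counts before use, with a spread that was set and not estimated from these data. It recovered 13.2% of 1.5-fold, 71.2% of 2-fold and 95.5% of 4-fold changes. A gene that did not pass may therefore still differ. Doublets were called with Scrublet in scanpy 1.11.5, with the automatic threshold dorsally and a fixed rate ventrally, where the automatic one marked 0.0821% and 0.238% of cells. They were kept, and their removal is one of 21 alternatives, which included DESeq2 1.42.0. Python 3.11.15 with numpy 2.4.6, scipy 1.17.1, pandas 2.3.3 and matplotlib 3.10.9 did the rest.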

Additional observations from a re-analysis of the deposited data

Results flagged for a closer look

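The difference between labelled and unlabelled cells varied with region, by edgeR's test of dorsal minus ventral over all 4 libraries, for 14 genes given here, with values on the log2 scale. The labelled-to-unlabelled ratio was higher dorsally for the keratins Krt14 (6.36), Krt13 (2.75), Krt6a (1.47) and Krt4 (1.04), for the serpin Serpinb2 (1.99), for the cell division genes Kif20b (3.17), Birc5 (3.16) and Top2a (2.08), and for the kinase Pak3 (2.68). It was higher ventrally for Sftpb (-1.88), Ccl20 (-1.57), Krtap17-1 (-1.38), Akr1c18 (-1.33) and Pxmp2 (-1.08). For Ccl20 and Pxmp2 the difference itself was in the dorsal library, where labelled cells were lower (ratios 0.242 and 0.483, against 0.992 and 1.24 ventrally in the controls).

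Mitotic cells and hillock RNA were themselves more frequent in the dorsal libraries, and the part of this in the regional differences was not tested. Without the cells with hillock or secretory RNA, the ratio was higher dorsally for 2 genes and higher ventrally for 12.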

How the results depend on the processing

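Of 21 alternatives, 3 were chosen after seeing the data (unlabelled at most 2 per 10000, non-mitotic cells without hillock or secretory RNA, and no cells with collagen UMIs). Where a gene named here passed in the controls, its control difference kept its direction in each alternative in which it could be tested. For the 10 genes named for region this was so of the regional difference and not of the control difference. Many genes could be tested in fewer than 21 alternatives. Knockout and other regional differences of single genes were not recomputed. With labelled cells at 2 or more per 10000, 49 of the 50 calls kept their side. The Krt14 mean over the controls, which was not called, ran from -1.25 to 4.31. This mean also changed sign for Pak3 (-0.70 to 1.97), Sftpb (-0.46 to 1.71) and Ccl20 (-2.03 to 0.88). It did so too for Krtap17-1 (-0.15 to 1.48), Akr1c18 (-0.12 to 2.09) and Pxmp2 (-1.04 to 0.32). The library was the block throughout. Counts below are higher and then lower.

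With labelled cells at 10 or more per 10000, controls gave 9 and 12 genes, the regional difference 27 and 19, the G2 and mitosis median 1.52, the luminal median 0.24 and labelled shares 28.0% and 26.4%. At 2 or more per 10000, controls gave 71 and 41, knockouts 46 and 7, the regional difference 58 and 20, and shares 65.5% and 59.5%. With 1 eGFP UMI after thinning, shares were 77.2% and 75.8%. With unlabelled cells at 0 eGFP UMIs, 61 genes were higher in controls and 35 in knockouts, and the luminal and hillock medians were 0.26 and 0.75. With unlabelled cells at most 2 per 10000, controls gave 13 and 12, knockouts 9 and 5, the genotype difference 1 higher, and these medians were 0.17 and 1.04.

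Without doublets controls gave 11 and 8, and without myoepithelial-like cells 12 and 6, with 13 higher in knockouts. Without collagen UMIs 36 were higher in knockouts. Without hillock and secretory cells 11 were higher in controls and 1 in knockouts, the genotype difference gave 5 and 1 and the regional one 2 and 12. The G2 and mitosis, luminal and hillock medians were then 0.31, 0.092 and 0.25, and the dorsal labelled mitotic share 5.19%. Without mitotic cells as well, these were 11, 2, 7 and 3, 2 and 10, and -0.15, 0.088 and 0.27. In non-mitotic cells 37 were lower in controls, the regional difference gave 59 and 22, and the G2 and mitosis and hillock medians were 0.13 and 1.05. The G2 and mitosis list holds the genes that chose non-mitotic cells, so its smaller median there is in part fixed by the choice.

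Thinned to 8000 UMIs, 34 were lower in controls, 11 higher in knockouts, the regional difference gave 28 and 23 and the 3 medians were 0.97, 0.18 and 0.56. From 8000 to 40000 UMIs, 3 were higher in knockouts, the genotype difference gave 2 and 1, the regional one 11 and 4 and the medians 1.09, 0.13 and 0.90. With no filter, controls gave 182 and 72, knockouts 180 and 34, the genotype difference 4 and 2, the regional one 305 and 86 and the luminal median 0.26. With control libraries only, controls gave 120 and 66. DESeq2 gave 8 lower in knockouts and 27 and 10 for the regional difference. With 3 of 8 genes, labelled mitotic shares were 6.18% and 0.676% and the ventral unlabelled share 0; unthinned, the labelled shares were 9.76% and 4.73%.

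Leaving out each library in turn, controls ranged from 14 to 143 higher and 13 to 69 lower, knockouts from 1 to 157 and 2 to 38, the genotype difference from 1 to 6 and 0 to 3, and the regional one from 117 to 271 and 58 to 101. The G2 and mitosis median ranged from 1.35 to 2.51 and the hillock median from 0.97 to 1.37. The cause of these moves was not tested.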

Other observations

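The transcript of the reporter locus itself, Gt(ROSA)26Sor, stood at 79.2 against 29.6 CPM dorsally (2.68-fold) and at 107 against 69.5 CPM ventrally (1.54-fold) in labelled against unlabelled control cells. It did not pass the edgeR test (1.01 ± 0.16, adjusted p = 0.0536) but did in 14 of 21 alternatives, over which the adjusted p ran from 0.000107 to 0.123.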
